A study of Mus musculus with 6 samples.

Results

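Acetylcholine signalling was described through 10 genes of its synthesis, receptors and breakdown, measured on 6 microarrays of mouse proximal airway. The genes were Chat, Slc5a7, Chrm1, Chrm2, Chrm3, Chrm5, Chrna3, Chrna7, Ache and Bche, chosen by name as rows of the array whose annotation gave exactly 1 gene symbol. All 10 were found, each by a single probe set, among 19938 genes with such a row. The control group was 3 arrays from 9-week-old mice carrying the Scgb1a1-Cre driver, and the mutant group was 3 arrays from mice of the same age with that driver and homozygous floxed alleles of both Foxp1 and Foxp4 (Scgb1a1-cre:Foxp1flox/flox:Foxp4flox/flox). Both groups had a mixed C57BL/6 and 129X1 background. Each RNA sample came from larger airways cut by hand out of stained frozen lung sections, so the samples hold epithelium, muscle, nerve and whatever tissue lay against the wall. The Scgb1a1 promoter drives Cre in club cells of the airway epithelium. Cells keep both genes where Cre was never active in them or in a cell they descend from. The products of both genes are transcription factors of the forkhead family. The series names lung resistance and compliance after methacholine, an agonist of muscarinic receptors, as its physiological readout, which was not analysed here. The comparison of mutant with control airways therefore bears on whether RNA of muscarinic receptors and of other acetylcholine signalling genes differed between the genotypes.

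Acetylcholine is made from choline and acetyl-CoA by choline acetyltransferase (Chat), and the high-affinity choline transporter (Slc5a7) supplies the choline in nerve endings. Parasympathetic nerves release it in the airway wall, where the muscarinic receptor encoded by Chrm3 acts through Gq to contract smooth muscle. The receptor encoded by Chrm2, abundant in airway smooth muscle and in the atria of the heart, acts through Gi, and on nerve endings it limits further release. Nicotinic receptors are ion channels built from subunits: that of Chrna3 carries transmission in autonomic ganglia, and that of Chrna7 forms channels on its own. Acetylcholinesterase (Ache) and butyrylcholinesterase (Bche) break the transmitter down.

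Promoter sequence is shown for the 3 genes whose values varied most between arrays. These are the 250 bases before the annotated start, 5′ to 3′ on the strand of the gene, from RefSeq with build GRCm38.p6. They lie at chr6:36387834-36388083 on the plus strand for Chrm2, chr13:10360804-10361053 on the minus strand for Chrm3 and chr3:73708416-73708665 on the minus strand for Bche. Capitals mark a forkhead spelling.
Chrm2: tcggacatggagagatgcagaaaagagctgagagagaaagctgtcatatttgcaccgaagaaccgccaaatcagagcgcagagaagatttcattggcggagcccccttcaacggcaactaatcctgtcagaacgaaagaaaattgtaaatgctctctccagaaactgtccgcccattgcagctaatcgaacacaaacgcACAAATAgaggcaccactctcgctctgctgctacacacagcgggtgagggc
Chrm3: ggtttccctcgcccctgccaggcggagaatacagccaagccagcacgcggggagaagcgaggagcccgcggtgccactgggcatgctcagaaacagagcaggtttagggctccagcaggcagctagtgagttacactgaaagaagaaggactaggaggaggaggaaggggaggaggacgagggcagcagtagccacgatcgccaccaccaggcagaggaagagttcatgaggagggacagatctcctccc
Bche: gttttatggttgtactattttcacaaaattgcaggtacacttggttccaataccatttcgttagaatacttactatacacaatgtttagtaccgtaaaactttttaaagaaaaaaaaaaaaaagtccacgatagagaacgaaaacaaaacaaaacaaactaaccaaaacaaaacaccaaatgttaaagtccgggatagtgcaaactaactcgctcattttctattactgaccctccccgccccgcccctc
The mutants lack 2 forkhead genes in cells where Cre acted and in their descendants. For that reason 4 spellings of forkhead motifs, given below with their shares, were searched on both strands. The promoter table held 9 of the 10 genes. The single match was in Chrm2, the capitals above, which read TATTTGT on the opposite strand and begin 51 bases before the start. In all 32851 promoters of the table, TATTTGT stood in 3.29% of the windows and the spelling GTAAACA in 3.17%. The spelling ATAAACA stood in 4.16% and the spelling TATTTAT in 5.17%, and 14% of the windows held any of the 4. No promoter of the 9 held the CArG box of serum response factor, which stood in 1.47% of all promoters. A match describes letters and is no evidence of binding. The windows differed widely in composition: the share of G and C was 35.6% for Bche, 37.6% for Chrm5, 45.6% for Slc5a7, 50.0% for Chrm2, 54.8% for Chat, 61.2% for Chrm3, 63.2% for Chrna3, 67.2% for Chrna7 and 73.6% for Ache, where the middle of all promoters ran from 45.2% (lower quartile) to 61.2% (upper quartile).

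Values are on the log2 scale, on which 1 unit is a doubling, and a difference is the mutant mean minus the control mean. A gene passed when its p-value from limma, a moderated linear model fitted over all genes, stayed under 0.05 after Benjamini-Hochberg adjustment over the 19938 genes. Array medians lay between 5.89 and 5.95, and pairs of arrays correlated across all probe sets at 0.976 to 0.991 (Pearson). The targeted genes were lower in every mutant array than in every control array, with differences of -0.23 for Foxp1 and -0.69 for Foxp4, and neither passed (limma adjusted p = 0.444 and 0.339). The epithelial genes Scgb1a1 (12.13 to 12.58) and Foxj1 (8.27 to 9.10), markers of club and ciliated cells, read high on all 6 arrays. Probe sets bind with different strength, so levels of different genes are not ranked. For scale, the means of 1027 olfactory receptor genes ran from 3.53 (5th percentile) to 4.97 (95th percentile). They served as a low reference, and whether any of them was expressed in these samples was not tested. The means of Chrm5, Chat, Ache, Slc5a7, Chrna3 and Chrna7 lay under that 95th percentile. Whether a probe set exceeded background could not be called.

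No gene of the 10 passed the comparison of mutant with control airways, where 0.266% of all genes passed. At an unadjusted p under 0.05 there was 1 gene of 10, Chrm3, against 10.1% of all genes. Mutant and control arrays did not overlap for 2 of the 10, Chrm5 and Chrna7, against 15.0% of all genes. The exact permutation test of 3 against 3 arrays, two-sided, gives its smallest possible p of 0.1 to any gene without overlap. For these same 2 genes it therefore restates the separation and is not a second test. Of the 10 genes, 6 had a lower mean in mutants, as did 45.4% of all genes. Their median difference was -0.04, and that of all genes was 0.02. In these bulk samples, fewer cells of a type and less RNA per cell cannot be told apart.

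**Figure D1:**
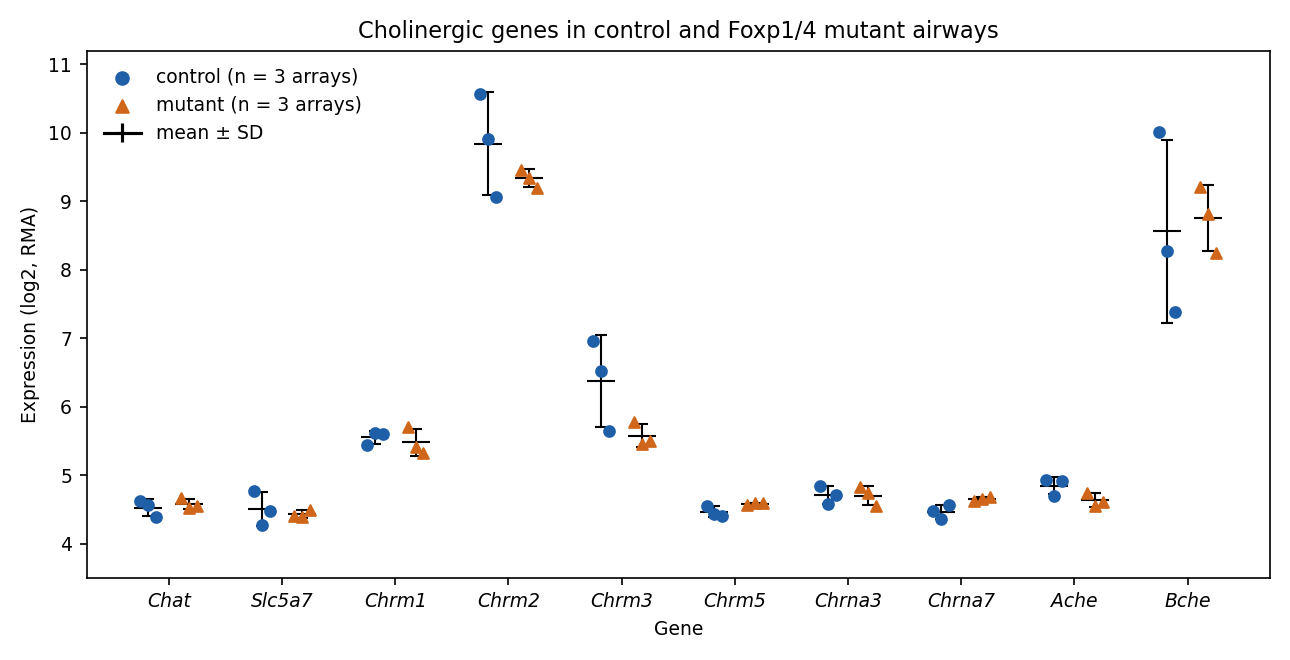
Log2 expression (y axis) of the 10 genes (x axis) on each control array (blue circles, n = 3) and mutant array (orange triangles, n = 3), with black bars for the mean ± SD. The controls of Chrm2, Chrm3 and Bche spread over 1.31 to 2.63 log2 units, wider than the mutants of the same genes.

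Chat and Slc5a7, of acetylcholine synthesis, varied little between arrays, at means within the range of the olfactory receptor genes, where differences may not show. Chat read 4.63, 4.57 and 4.38 on control arrays 1 to 3 and 4.67, 4.52 and 4.55 on mutant arrays 1 to 3. The groups overlapped, with the highest and the lowest value 0.29 apart, and the difference was 0.05 (SE 0.10; limma adjusted p = 0.924; 95% interval -0.18 to 0.29). Slc5a7 read 4.77, 4.28 and 4.48 in controls and 4.41, 4.39 and 4.49 in mutants. All 3 mutant values lay within the range of the controls (difference -0.08, SE 0.13, limma adjusted p = 0.913, 95% interval -0.40 to 0.24). The gene of the vesicular transporter, Slc18a3, lies inside Chat in the reference annotation and was looked at for that reason after its values were known. It read 5.17, 4.85 and 4.70 in controls and 4.95, 4.73 and 5.0 in mutants, with a difference of -0.01.

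Markers of the cells that are known to make acetylcholine were set beside these values. Of the autonomic neuron list, 13 of 14 genes were measured and 0 passed. Its mean was 5.31 to 5.83 over the controls and 5.40 to 5.46 over the mutants, with the top value on control 1. Within it, Snap25, a synaptic vesicle fusion protein, read 7.39 on control 1 and 5.70 to 5.94 on the other 5 arrays. The sodium channel gene Scn3a, the 1 neuron marker whose groups did not overlap, read 4.62 to 4.89 in controls and 4.93 to 5.16 in mutants (limma adjusted p = 0.439). Tuft cells, an epithelial source of acetylcholine, were followed by 10 of 10 genes with 0 passing, and their mean was 5.68 to 5.82 in controls and 5.64 to 5.72 in mutants. Pou2f3, the factor that defines tuft cells, read 5.22 to 5.26 in controls and 4.99 to 5.55 in mutants. The groups of 2 tuft cell genes did not overlap, in opposite directions. Dclk1, a kinase gene also known from neurons, read 6.49, 7.10 and 6.69 in controls and 5.83, 6.18 and 5.62 in mutants (difference -0.88, SE 0.20, limma adjusted p = 0.220). Sh2d6 read 5.60, 5.40 and 5.57 in controls and 6.30, 5.60 and 5.98 in mutants (difference 0.43, SE 0.18, limma adjusted p = 0.491). Lymphocytes, some of which also make the transmitter, differed far more between arrays. Over 9 of 11 listed B-lineage symbols (Igj and Jchain name the same gene) the mean was 6.37, 9.33 and 9.18 in controls and 5.84, 7.70 and 6.08 in mutants. Over 9 of 10 listed T and NK cell genes it was 6.15, 7.83 and 7.74 in controls and 5.82, 6.61 and 5.77 in mutants. In both lists 0 genes passed. The part of these cells in the values of Chat and Slc5a7 was not tested.

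Among the muscarinic receptors, Chrm3 had the most negative difference of the 10 genes. Chrm3, the receptor that contracts airway smooth muscle, read 6.96, 6.53 and 5.65 in controls and 5.77, 5.45 and 5.50 in mutants. Controls 1 and 2 lay above every mutant, and control 3 lay among the mutants. The means were 6.38 ± 0.67 (SD, n = 3) and 5.58 ± 0.17. The difference of -0.80 (SE 0.32) corresponds to a 1.74-fold lower mean and did not pass (limma adjusted p = 0.482, unadjusted p = 0.0438; exact permutation p = 0.2). Its 95% interval, not adjusted for the number of genes, ran from -1.57 to -0.03. Leaving out 1 array at a time moved the difference between -1.16 without control 3 and -0.51 without control 1, and with array weights it was -0.45. Over all 16 alternative settings it stayed below 0, with limma adjusted p from 0.216 to 0.826.

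Chrm2 showed a like arrangement of arrays. It read 10.56, 9.90 and 9.07 in controls and 9.46, 9.34 and 9.20 in mutants. Controls 1 and 2 again lay above the mutants, and control 3 lay below them all. The control mean was 9.84 ± 0.75 (SD, n = 3) and the mutant mean 9.33 ± 0.13, so the difference of -0.51 (SE 0.35) was smaller than the SD of the controls. It did not pass (limma adjusted p = 0.704), and its 95% interval of -1.36 to 0.34 holds both no difference and a halving. Without control 1 the difference was -0.15, and without control 3 it was -0.90.

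The other muscarinic receptors stayed within narrow bounds. Of these, Chrm5 had a mean within the range of the olfactory receptor genes, where differences may not show. Chrm1, known from glands and neurons, read 5.44, 5.61 and 5.60 in controls and 5.70, 5.41 and 5.33 in mutants. The mutants held both the highest and the lowest value (difference -0.07, SE 0.12, limma adjusted p = 0.917). Chrm5, a further receptor of the family that couples to Gq, read 4.56, 4.43 and 4.41 in controls and 4.57, 4.59 and 4.59 in mutants. Every mutant lay above every control, with the nearest pair 0.01 apart, and the difference of 0.12 (SE 0.08) did not pass (limma adjusted p = 0.689; exact permutation p = 0.1). Chrm5 overlaps the gene Aven in the reference annotation. Chrm4, the receptor outside the 10 genes, read 4.87 to 5.22 in controls and 5.20 to 5.28 in mutants (difference 0.20, limma adjusted p = 0.609).

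**Figure D2:**
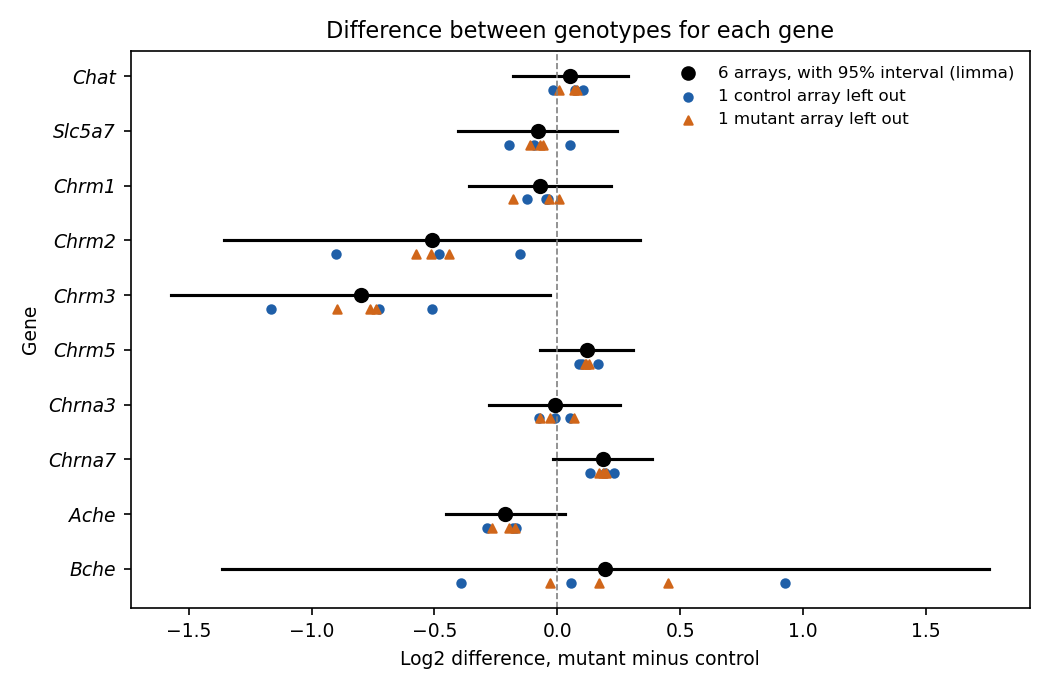
Log2 difference of mutant minus control (x axis) for each gene (y axis). Black points and bars are the estimate from 6 arrays with limma's 95% interval, and small symbols are the estimates with 1 control (blue circle) or 1 mutant array (orange triangle) left out. The interval of Chrm3 alone excludes 0 before adjustment. The estimates with 1 array left out lie on both sides of 0 for Bche, Slc5a7, Chrna3, Chat and Chrm1, and spread most for Bche.

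The nicotinic genes Chrna7 and Chrna3 differed by small amounts, at means within the range of the olfactory receptor genes, where differences may not show. Chrna7 read 4.48, 4.36 and 4.56 in controls and 4.62, 4.65 and 4.68 in mutants. All mutants lay above all controls, and the difference of 0.18 (SE 0.08) did not pass (limma adjusted p = 0.536; exact permutation p = 0.1; 95% interval -0.02 to 0.39). It stayed between 0.13 and 0.23 with any 1 array left out. Chrna3 read 4.84, 4.58 and 4.71 in controls and 4.82, 4.74 and 4.55 in mutants. The groups overlapped over nearly their whole range (difference -0.01, SE 0.11, limma adjusted p = 0.987). Chrna3 overlaps Chrna5 and neighbours Chrnb4 in the annotation, and these 3 subunits assemble together in ganglia. Chrna5 differed by -0.08, and Chrnb4 read 5.70, 6.24 and 5.94 in controls and 5.79, 5.57 and 5.53 in mutants (difference -0.33, limma adjusted p = 0.547).

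The esterases differed from each other in how far their arrays spread. The mean of Ache, unlike that of Bche, lay within the range of the olfactory receptor genes, where differences may not show. Ache read 4.93, 4.70 and 4.91 in controls and 4.74, 4.56 and 4.61 in mutants. Controls 1 and 3 lay above all mutants, and control 2 lay between mutant 1 and the other mutants. The difference was -0.21 (SE 0.10), with a limma adjusted p of 0.561 and a 95% interval of -0.45 to 0.03. Bche, the esterase of plasma, liver and fat, had the widest range of the 10 genes, 2.63 log2 units. It read 10.02, 8.28 and 7.39 in controls and 9.21, 8.81 and 8.25 in mutants. The controls held both the top and the bottom value, and the mutants lay between control 1 and control 2 except mutant 3, which was just below control 2. The means were 8.56 ± 1.34 (SD, n = 3) and 8.76 ± 0.48, a difference of 0.20 with an SE of 0.65 (limma adjusted p = 0.960). Without control 1 it was 0.92 and without control 3 it was -0.39, so the direction turned on single arrays.

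For 8 of the 10 genes the SD over controls exceeded the SD over mutants, as it did for 50.9% of all genes. The exceptions were Chrm1 and Chrna3. The wide controls were those of Chrm2, Chrm3 and Bche, the 3 genes with a range of at least 1 log2 unit over the 6 arrays. For these the genes with the nearest mean-centred profile were sought among 17043 others, by the root mean square difference over the 6 arrays. The nearest to Chrm3 was Hlf, a transcription factor gene of the circadian clock output, at 0.08 log2 units, followed by the peptide transporter gene Slc15a2 (0.16) and Chrm2 (0.17). The nearest to Chrm2 was also Hlf (0.12), followed by Chrm3 (0.17) and Nrn1 (0.18), which encodes neuritin. Hlf read 9.07, 8.53 and 7.82 in controls and 8.02, 7.69 and 7.70 in mutants. The 2 receptor genes thus stood among each other's 3 nearest profiles. For Bche the nearest were Ccdc3 (0.27), Cyp4a12b (0.33) and Cidea (0.34), of which Cidea encodes a lipid droplet protein of brown fat. Ccdc3 read 7.96, 6.05 and 5.90 in controls and 7.33, 6.81 and 6.73 in mutants. Cyp4a12b read 10.38, 9.01 and 8.20 in controls and 9.55, 8.78 and 9.19 in mutants. Cidea read 7.06, 5.93 and 5.58 in controls and 6.96, 6.41 and 5.97 in mutants. Ucp1, another gene of brown fat, was not among the 3 nearest. It read 8.42, 4.82 and 4.84 in controls and 4.89, 6.68 and 4.82 in mutants, so mutant 2 stood above mutant 1, unlike in Bche. Nearness over 6 arrays is a description, and the arrays share whatever tissue each dissection carried.

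**Figure D3:**
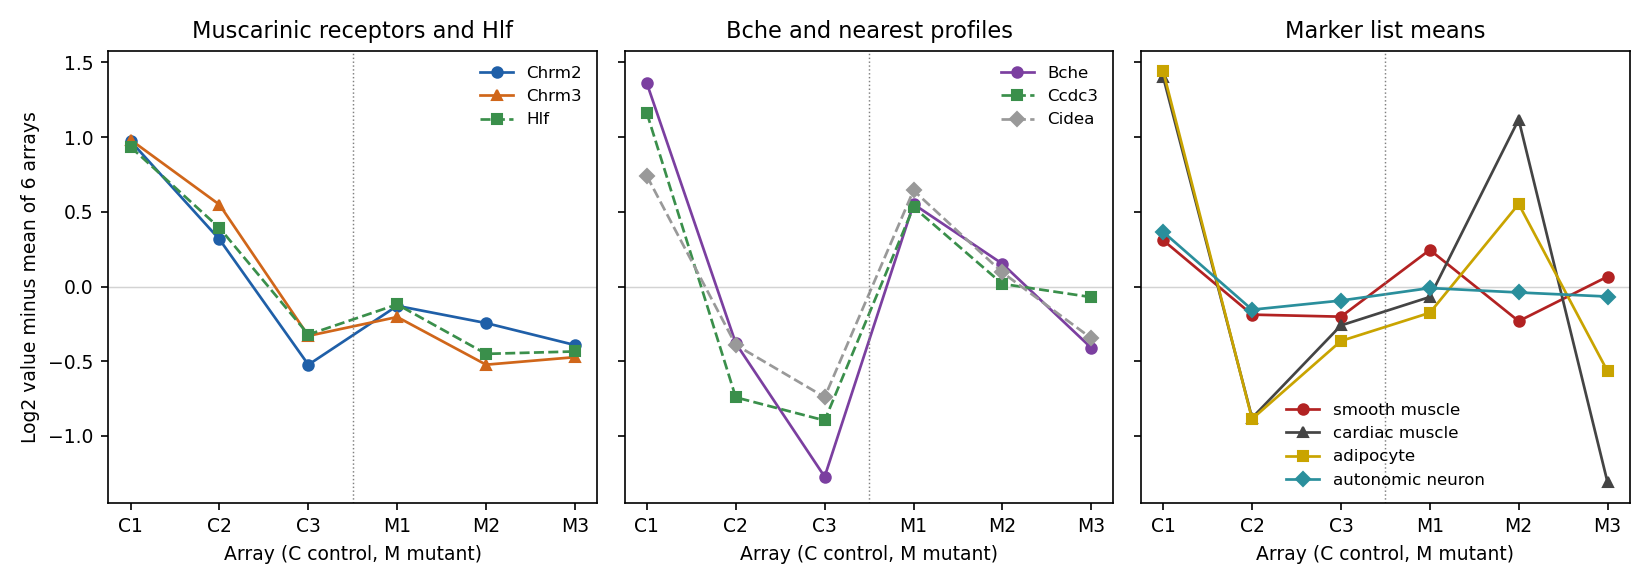
Log2 value minus the mean of the 6 arrays (y axis) on each control (C) and mutant (M) array (x axis), for single genes in the left and middle panels and means of marker lists in the right panel. Lines join points of one gene or list for reading only, since replicates have no order. The middle panel shows Bche with Ccdc3 and Cidea, and Cyp4a12b, which is nearer to Bche than Cidea, is not drawn. Chrm2, Chrm3 and Hlf are highest on control 1, and the cardiac and adipocyte means are high on control 1 and mutant 2.

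Marker lists of the tissues that express these receptors were set beside them. All 10 smooth muscle genes were measured and 0 passed. Their mean was 10.49, 9.99 and 9.98 in controls and 10.42, 9.95 and 10.24 in mutants, so mutant 1 stood near control 1 and control 2 stood near mutant 2. Both Chrm3 and the smooth muscle mean were highest on control 1, while mutant 1 was the second highest for the muscle mean and the third highest for Chrm3. The mean of 12 cardiac muscle genes, which the wall of the pulmonary vein also expresses, was 10.70, 8.42 and 9.04 in controls and 9.23, 10.42 and 7.99 in mutants. Both the cardiac mean and Chrm2, the receptor of atrial muscle, were highest on control 1, while mutant 2 was the second highest for the cardiac mean and the fourth highest for Chrm2. Without control 1 and mutant 2, the difference of Chrm3 was -0.45 and that of Chrm2 was -0.16. Control 1 held the highest value of both genes, and without it alone the differences were -0.51 and -0.15. The smaller differences thus went with the loss of that array and do not test a part of cardiac tissue. The mean of 8 of 9 adipocyte genes was 8.94, 6.62 and 7.14 in controls and 7.33, 8.06 and 6.94 in mutants. Bche shared the high value of control 1 and stood higher on mutant 1 than on mutant 2. The part of these tissues in the values of Chrm2, Chrm3 and Bche was not tested further.

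The wider pathway was followed in 6 lists, each described by its count and median beside the median of all genes, 0.02. None of their measured genes passed on all 6 arrays. Of the acetylcholine synthesis, storage and release list, 10 of 13 genes were measured, with 7 differences above 0, 3 below and a median of 0.10. Chka, the choline kinase that draws choline into phospholipid, read 7.75, 7.44 and 7.81 in controls and 7.98, 8.17 and 8.17 in mutants. Every mutant lay above every control (difference 0.44, SE 0.12, limma adjusted p = 0.323). Slc44a4, a choline transporter-like protein of epithelia, read 9.15, 9.56 and 9.23 in controls and 10.07, 9.48 and 10.29 in mutants. Mutant 2 lay below control 2 (difference 0.63, limma adjusted p = 0.433), and the gene passed without control 1 and mutant 2 (0.78, limma adjusted p = 0.0486). In that setting many more genes passed than the 53 of all genes that did so on all 6 arrays. The organic cation transporter gene Slc22a2 (0.28) and the choline transporter-like genes Slc44a3 (0.14), Slc44a1 (0.13) and Slc44a5 (0.07) completed the 6 with the smallest p. The breakdown list held Ache, Bche and the anchors of acetylcholinesterase, Colq (-0.15) and Prima1 (0.07), and had a median of -0.04.

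All 16 nicotinic subunit genes were measured, 10 above 0 and 6 below, with a median of 0.03. Chrnb1, the beta subunit known from muscle, had the smallest p. It read 6.78, 6.69 and 6.59 in controls and 7.12, 6.97 and 6.93 in mutants. The groups did not overlap (difference 0.32, SE 0.09, limma adjusted p = 0.342), and its adjusted p ranged from 0.0938 to 0.686 over the alternatives. Chrnb2 (-0.15) and Chrng (0.10) followed Chrnb4 by p. Of 9 symbols listed as nicotinic modulators, 8 were measured, with a median of 0.09. Among these symbols Tmem35 and Tmem35a name the same gene. Lynx1, a membrane-anchored brake on nicotinic receptors, read 9.89, 9.76 and 9.49 in controls and 9.14, 9.05 and 9.25 in mutants. All controls lay above all mutants, and the difference of -0.57 (SE 0.12) had the lowest p of any gene in the 6 lists without passing (limma adjusted p = 0.208). Over the alternatives its difference ran from -0.68 to -0.41 and its adjusted p from 0.122 to 0.540. Rapsn, which clusters receptors at the muscle endplate, differed by 0.31, Agrn by 0.16, Musk by 0.14, Tmem35a by 0.10 and Ric3 by 0.08. Both Tmem35a and Ric3 help nicotinic receptors assemble.

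Of 40 symbols listed for muscarinic downstream signalling, 34 were measured, 15 above 0 and 19 below, with a median of -0.02. Among these symbols Adrbk1 and Grk2, both without a row, name the same gene. Rgs4, which shortens Gq and Gi signals, had the largest positive difference and read 7.90, 6.41 and 6.70 in controls and 7.77, 7.60 and 8.30 in mutants. Control 1 lay among the mutants (difference 0.88, limma adjusted p = 0.537). Gnai1, an alpha subunit of Gi, read 9.43, 8.50 and 8.57 in controls and 9.45, 9.59 and 9.33 in mutants. Again control 1 stood with the mutants (difference 0.63, limma adjusted p = 0.484), and without control 1 the difference was 0.93 and passed (limma adjusted p = 0.0237). Without control 1, 388 of all genes passed, against 53 on all 6 arrays. Plcb1, a phospholipase C activated by Gq, differed by 0.58, and Itpr2, a calcium release channel of the endoplasmic reticulum, by -0.41. Arhgef1, a guanine nucleotide exchange factor gene, had the smallest p of this list. It read 8.37, 8.77 and 8.64 in controls and 8.20, 8.18 and 8.29 in mutants, with every control above every mutant (difference -0.37, SE 0.12, limma adjusted p = 0.382). The related Arhgef12 read 9.38, 8.92 and 9.16 in controls and 9.41, 9.67 and 9.41 in mutants, again without overlap but with mutants higher (difference 0.34, SE 0.14, limma adjusted p = 0.502). The alpha subunit of Gq itself, Gnaq, differed by 0.13 and the myosin light chain kinase gene Mylk by -0.09, both chosen for their place in the pathway after their values were known.

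**Figure D4:**
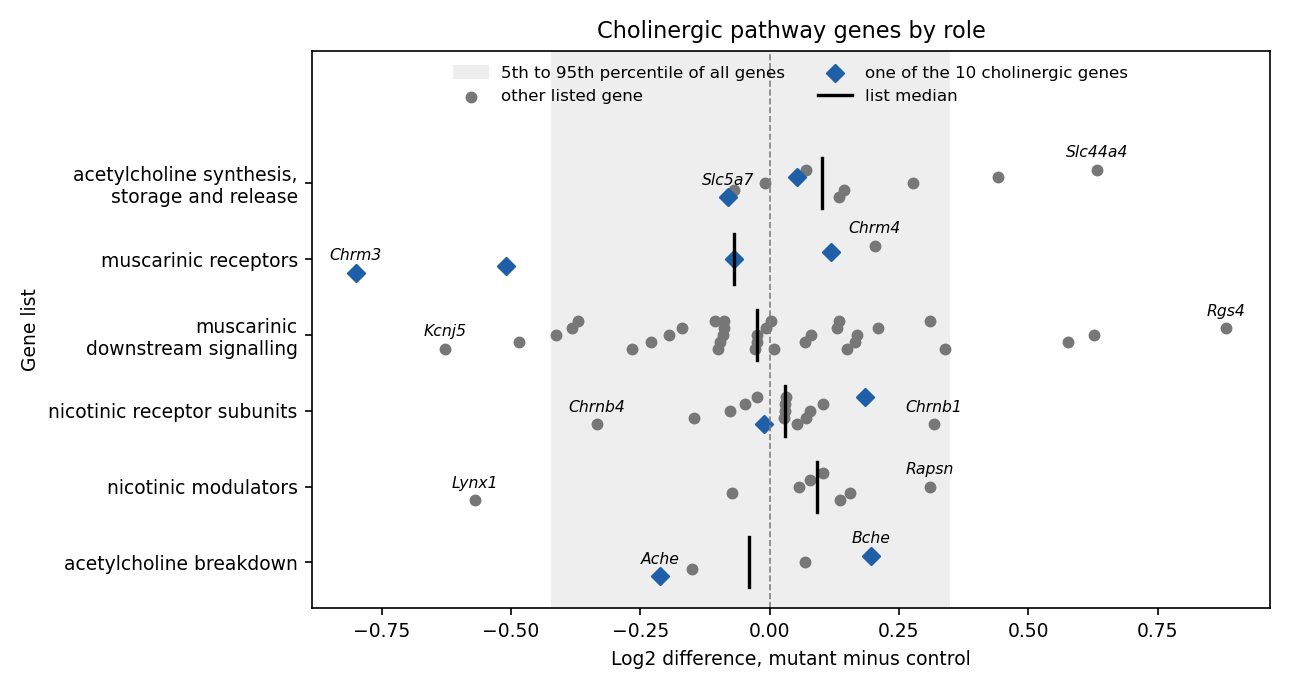
Log2 difference of mutant minus control (x axis) for every measured gene of 6 pathway lists (y axis), with the 10 cholinergic genes as blue diamonds, other genes as grey points, list medians as black bars and the 5th to 95th percentile of all genes (-0.42 to 0.35) shaded. List medians lie between -0.07 and 0.10, and Chrm2, Chrm3 and Lynx1 are among the genes left of the shaded range.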

How the data were processed

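Each sample is 1 Affymetrix array. The deposited values are log2 expression values that the authors made with oligo, RMA and limma, per the submitters' processing notes; their versions, the genome build and whether arrays were normalised jointly are not given in sources used here. As a method, RMA compresses differences of dim probe sets. The labels do not say that samples of a group came from separate mice, so the p-values cover only sample-to-sample spread, part of which may be technical.

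Of 35556 rows, 21789 named 1 gene, and the row with the highest mean was kept per gene. The fit used lmFit and eBayes in limma 3.58.1 (R 4.3.3) with genotype as the only term, two-sided. Tables and figures used Python 3.11.15, pandas 2.3.3 and matplotlib 3.10.9. The procedure was tested on simulated data with independent noise and shifts of 1 and 3 log2 units. The difference of each of the 10 genes was smaller than these shifts, so that test does not cover them. Named genes were all 10 members, up to 6 per pathway list by smallest p, and the 3 nearest profiles, leaving out predicted transcripts, small RNAs and chemosensory receptors. The members and lists were chosen with earlier results of these data known. Of the motifs, GTAAACA was chosen first, and the other spellings and the CArG box were added after the values were seen. Among the genes of further marker lists, only Upk3a of the club cell list passed. Scanner files were not used here, so no batch was tested.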

Additional observations from a re-analysis of the deposited data

How the results depend on the processing

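None of the 10 genes passed under any of the 16 alternative settings; a filter on the lowest 40% of mean values kept only Chrm2, Chrm3 and Bche. With 1 array left out, the directions of 5 genes turned: Slc5a7 (-0.20 to 0.050), Chrna3 (-0.076 to 0.067), Chat (-0.019 to 0.10), Bche (-0.39 to 0.92, and -0.031 without mutant 1) and Chrm1 (-0.18 to 0.0054). Slc5a7 (0.071) and Chrna3 (0.035, and 0.053 without control 1) also turned without control 1 and mutant 2. The number of arrays limits the precision, and dim probe sets limit what can be seen of 6 of the genes.

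The count of genes that passed, 53, was 291 with array weights, 82 with an intensity trend, 963 without control 1 and mutant 2, and 9 to 388 with 1 array left out. With the replicate number as a block it was 0, and 0 of the 10 genes passed. Same-numbered arrays correlated in their deviations at 0.136, -0.091 and -0.040, and arrays did not all correlate best with their own number. The labels do not say whether same-numbered arrays were paired, and so few correlations cannot decide it. Without the lowest 40% of genes, list medians were -0.66 for muscarinic receptors (2 genes kept, Chrm2 and Chrm3) and 0.015 for nicotinic modulators (4 kept), and of the nicotinic subunits only Chrnb1 was kept (0.32). The median of the synthesis list was 0.16 with array weights and 0.18 without control 1 and mutant 2. In that last setting, where 963 of all 19938 genes passed, 1 synthesis gene and 5 downstream genes (Gnai1, Plcb1, Plcb2, Itpr2 and Rgs4) passed. With 1 array left out, 0 to 1 downstream genes did.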

Other observations

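Kcnj3 and Kcnj5 encode the potassium channel subunits that atrial muscarinic receptors open through Gi, and both were picked out after their values were seen. Kcnj3 read 8.02, 5.33 and 5.69 in controls and 5.98, 7.27 and 4.99 in mutants, and Kcnj5 read 6.67, 5.0 and 5.05 in controls and 4.59, 5.71 and 4.54 in mutants. Both were highest on control 1 and next highest on mutant 2, the arrays with the highest means of the cardiac muscle list. Chrm2 was also highest on control 1 (10.56) and read 9.34 on mutant 2. Ryr2, a calcium release channel that stands in both the downstream and the cardiac list and lies next to Chrm3 in the annotation, read 9.28, 6.58 and 7.33 in controls and 7.40, 8.82 and 6.97 in mutants, with a difference of 0.0025 (limma adjusted p = 0.999).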
